A study of Mus musculus with 2 samples.

Results

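The genes described here are 10 immediate early genes of mouse lower molar mesenchyme, out of 22054 genes in the deposited tables: Egr1, Egr2, Egr3 and Egr4, the AP-1 genes Fos, Fosb, Jun and Junb, and Ier2 and Atf3. They were selected by gene symbol, with the ratios of mutant to control RPKM of this comparison already known, so these ratios are given as a description and no test was made of them. RNA came from Osr2+/- controls and Osr2-/- mutants on a mixed background at embryonic day 14.5. The mesenchyme had been cut from frozen head sections by laser capture, tissue of 3 pairs was pooled before RNA extraction, and 1 library per genotype was sequenced. Both groups carry at least 1 mutant Osr2 allele, so no wild-type sample is among them. With 1 library per genotype there is no spread between replicates, and each difference below is a difference between 2 libraries.

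Immediate early genes are transcribed within minutes of a signal, without new protein synthesis. Growth factors, depolarisation, stretch and stress reach them mainly through the ERK, JNK and p38 kinases, which act on serum response factor and its partners and on the factors that bind the cAMP response element. Egr proteins are zinc-finger transcription factors that bind GC-rich sites, and Nab1 and Nab2 are corepressors that hold them in check. Fos and Jun proteins pair through leucine zippers to form AP-1, a separate class of transcription factor. Egr2 is known for its roles in hindbrain segments and Schwann cells, Egr1 for tendon and Egr3 for muscle spindles, while Fos is required for osteoclasts.

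The libraries differed in depth and in more than the Osr2 locus. From coverage, about 5.38 M mapped reads were estimated for the control and 34.3 M mapped reads for the mutant, a ratio of 6.38, so the control sets the precision of every fold. Osr2 was at 38.7 RPKM (reads scaled to transcript length and to the library's mapped reads) for the control and 9.16 RPKM in the mutant library, which is the direction the labels give. Which part of Osr2 the allele lacks is not stated in the labels, so the remaining mutant reads check those labels only in part. The file names place the libraries on different lanes, and the effects of lane and of genotype cannot be told apart. All 10 dental mesenchyme markers examined were detected above 1 RPKM in both libraries, among them Msx1 at 40.0 and 36.8 RPKM. Of the Y-linked genes, Ddx3y had 3.28 RPKM in the control library and 0 in the mutant, while Xist was at 5.21 and 30.0 RPKM, so sex-linked transcripts moved with genotype. Their part in the values below was not tested. In bulk RNA, fewer cells of a type and less RNA per cell cannot be told apart.

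The starts of these genes are shown first, because serum response factor and cAMP response element factors are the textbook inputs of this class. RefSeq promoter sequences of build GRCm38.p6, matched by symbol, were used for 7 of the 10 genes (Egr2, Egr4, Fos, Fosb, Jun, Junb and Atf3). Egr1, Egr3 and Ier2 were not searched. The 250 bases before the start were searched for the CArG box, the site of serum response factor (its pattern reads the same on both strands), and for TGACGT on both strands, the core of the cAMP response element. The patterns do not overlap one another in the windows shown. A CArG box was found in 482 of all 32851 windows of this length (1.47%) and TGACGT in 6.47%. Among the 7 genes searched, only Egr2 held a CArG box, and Egr2, Egr4, Fos and Atf3 held TGACGT. Whether Egr1 or Egr3 holds either motif was not examined, so the CArG box does not set Egr2 apart from them. Egr2 has 5 listed starts, 4 of them with a CArG box, and the start shown is the one whose distance to the gene's end, 4320 bases, equals the span of the deposited Egr2 transcript. Its CArG box begins 72 bases and its TGACGT match 56 bases before the start. The Fos match begins 66 bases before the start, and the Egr4 matches begin 178 and 110 bases before it. For Fos the distance to the gene's end is 3385 bases against a deposited span of 3369. For Egr4 it is 2469 against 2421, so these 2 windows may not be those of the deposited transcripts. A match is a run of letters and no evidence of binding, and a site outside this window would not be seen. Below are Egr2, which had the largest log2 ratio of the 10 genes, Egr4, its relative listed at 0, and Fos and Jun for comparison, each 5′ to 3′ on the gene's strand, with both motifs in capitals.
Egr2, chr10:67537619-67537868, plus strand: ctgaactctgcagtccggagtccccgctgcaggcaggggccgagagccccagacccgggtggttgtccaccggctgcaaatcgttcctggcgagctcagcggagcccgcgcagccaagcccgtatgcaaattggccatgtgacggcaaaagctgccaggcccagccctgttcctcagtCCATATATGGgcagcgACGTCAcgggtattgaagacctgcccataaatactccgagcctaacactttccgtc
Egr4, chr6:85513590-85513839, minus strand: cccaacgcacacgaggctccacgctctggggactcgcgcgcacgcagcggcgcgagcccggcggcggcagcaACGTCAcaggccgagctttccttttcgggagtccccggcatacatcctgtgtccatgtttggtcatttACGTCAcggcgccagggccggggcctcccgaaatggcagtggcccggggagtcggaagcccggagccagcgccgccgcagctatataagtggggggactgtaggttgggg
Fos, chr12:85473640-85473889, plus strand: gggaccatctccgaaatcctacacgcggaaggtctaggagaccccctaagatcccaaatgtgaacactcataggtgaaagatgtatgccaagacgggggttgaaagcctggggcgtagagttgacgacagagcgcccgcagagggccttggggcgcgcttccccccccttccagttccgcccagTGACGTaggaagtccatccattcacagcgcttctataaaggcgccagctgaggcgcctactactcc
Jun, chr4:95052223-95052472, minus strand: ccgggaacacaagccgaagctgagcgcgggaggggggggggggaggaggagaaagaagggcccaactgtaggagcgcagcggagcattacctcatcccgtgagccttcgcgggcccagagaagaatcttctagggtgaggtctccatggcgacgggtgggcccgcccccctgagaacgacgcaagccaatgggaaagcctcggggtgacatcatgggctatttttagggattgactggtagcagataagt

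Egr1, Egr2 and Egr3 were each higher in the mutant library, and Egr4 was listed at 0 in both. Egr1, the family member expressed most strongly here, was at 4.62 RPKM in the control library (95% counting interval 3.62 to 5.76) and 10.5 RPKM in the mutant library (9.92 to 11.2). The intervals do not overlap, and the plain ratio was 2.28-fold (1.81 to 2.93), on about 76 control reads and 1110 mutant reads. Egr1 moved from the second to the first place among the 10 genes, and from percentile 82.0 to percentile 92.9 of all 22054 genes. It lies on chromosome 18 from 35020861 to 35024610 in mm9, the build of the deposited files, and has 1 listed transcript of 3072 bases.

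Egr2 was at 0.624 RPKM in the control library (0.301 to 1.15) and 3.05 RPKM in the mutant library (2.72 to 3.41). The intervals again lie apart, and its 4.89-fold difference (2.61 to 10.2) was the largest plain ratio among the 10 genes, though it rests on about 10 control reads against 310 in the mutant. Egr2 passed the filter of 1 RPKM in at least 1 library only through the mutant, and a gene that passes in this way has to differ. Its percentile among all genes was 52.5 (control) and 75.9 (mutant). Egr2 lies on chromosome 10 from 67000617 to 67004936 (mm9).

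Egr3 was at 1.87 RPKM in the control library (1.01 to 3.08) and 5.47 RPKM in the mutant library (4.84 to 6.18), 2.92-fold higher (1.74 to 5.52) on about 14 and 266 reads. The mutant value lies above the whole control interval. Egr3 lies on chromosome 14 from 70477252 to 70479964 (mm9), with a transcript of 1416 bases, the shortest of the 10. Egr4, on chromosome 6 from 85461116 to 85463536, was listed at 0 RPKM in both libraries, and 3 reads, the limit that a count of 0 allows, would correspond to 0.266 RPKM in the control library and 0.0417 RPKM in the mutant library. The limit is tighter in the deeper mutant library, and no fold is given.

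**Figure D1:**
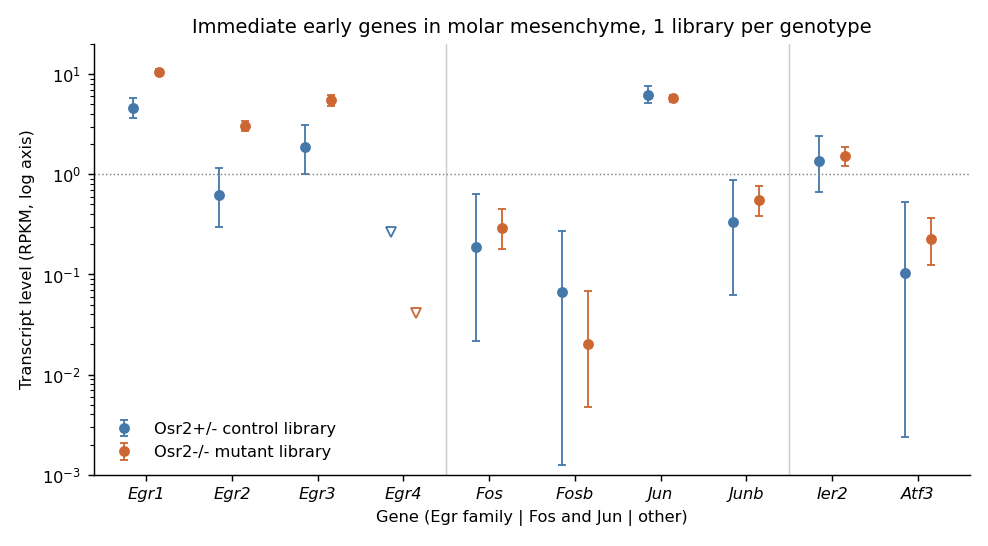
RPKM (log axis) of each of the 10 genes in the control and the mutant library, with bars for the 95% counting intervals, open triangles for the limit of Egr4, which is listed at 0, and a dotted line at 1 RPKM. Egr1, Egr2 and Egr3 have separate intervals, and the pairs of Jun (6.25 and 5.73 RPKM) and Ier2 (1.35 and 1.52 RPKM) overlap.

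Of the AP-1 genes, only Jun had enough control reads for a narrow interval. Jun, the partner that forms AP-1 with Fos proteins or with itself, was at 6.25 RPKM in the control library (5.12 to 7.54) and 5.73 RPKM in the mutant library (5.29 to 6.19). The intervals overlap almost wholly, and the ratio was 0.92 (0.75 to 1.14) on about 107 and 626 reads. Jun had more control reads than Egr1, and the 2.28-fold ratio of Egr1 lies outside its interval. Rescaled so that all transcripts sum to the same total in both libraries (the TPM scale), the log2 ratio of Jun was 0.01 against -0.11, so its sign depends on the scaling. Jun lies on chromosome 4 from 94715727 to 94718913 (mm9).

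The other AP-1 members were near the limit of detection in the control. Fos was at 0.189 RPKM in the control library (0.0215 to 0.642, about 2 reads), and the mutant library gave 0.289 RPKM (0.181 to 0.447, about 21 reads), a ratio of 1.53 (0.40 to 14.5). Junb was at 0.335 RPKM in the control library (0.0625 to 0.886, about 3 reads), and the mutant library gave 0.549 RPKM (0.386 to 0.771), a ratio of 1.64 (0.58 to 9.30). Fosb, at 0.0666 and 0.0201 RPKM on about 1 and 3 reads, had a ratio of 0.30 (0.038 to 24.7). For these 3 genes the intervals hold 1 as well as the folds of the Egr genes, so at this depth no difference could be seen and none of that size could be set aside. They lie on chromosomes 12 (Fos, 86814851 to 86818219), 8 (Junb, 87500808 to 87502647) and 7 (Fosb, 19888045 to 19895394) in mm9.

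Ier2 and Atf3 were also not separated between the libraries. Ier2, a short immediate early nuclear protein gene, was at 1.35 RPKM in the control library (0.671 to 2.40) and 1.52 RPKM in the mutant library (1.20 to 1.89), a ratio of 1.13 (0.60 to 2.35) on about 11 and 79 reads. Atf3, a stress-induced member of the ATF and CREB family, was at 0.104 RPKM in the control, about 1 read, and 0.224 RPKM in the mutant library, about 15 reads, a ratio of 2.15 (0.36 to 99.0). The interval of Atf3 spans both directions, and its ratio rests on that 1 read. Ier2 lies on chromosome 8 from 87185230 to 87186751, 314 kb from Junb, and Atf3 on chromosome 1 from 192994176 to 193007212 (mm9). No other listed gene overlaps any of the 10, each of which has 1 transcript row with status OK in both libraries.

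**Figure D2:**
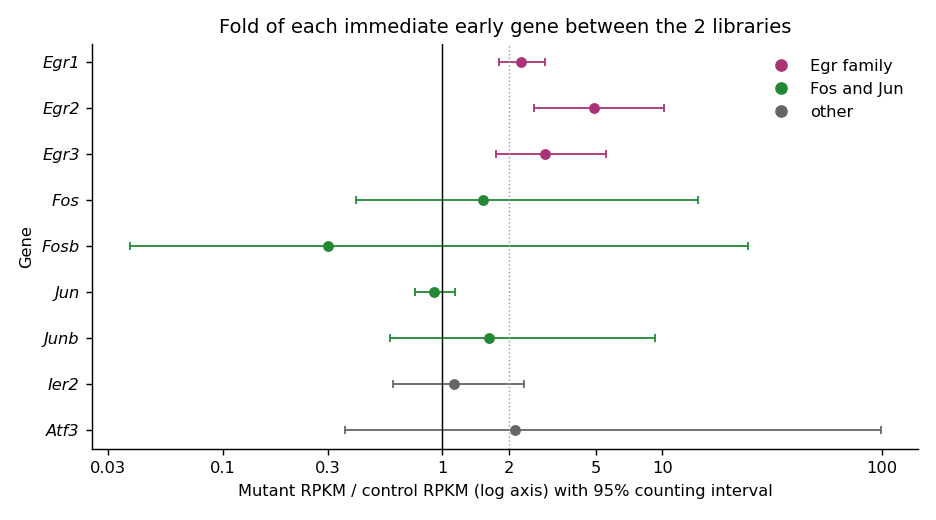
Plain ratio of mutant to control RPKM (log axis) of the 9 genes with reads, with 95% counting intervals, a solid line at 1 and a dotted line at 2. The intervals of Egr1 (1.81 to 2.93), Egr2 and Egr3 lie above 1, that of Jun (0.75 to 1.14) is narrow and holds 1, and those of Fos, Fosb, Junb and Atf3 are wide.

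The order of the levels differed between the libraries. In the control it ran from Jun through Egr1, Egr3, Ier2, Egr2, Junb, Fos, Atf3 and Fosb to Egr4. Only 1 pair of neighbours in that order, Egr1 and Egr3, had counting intervals that did not overlap. In the deeper mutant library Egr1 came first and Jun second, and the first 6 were Egr1, Jun, Egr3, Egr2, Ier2 and Junb. There Jun (5.73 RPKM) and Egr3 (5.47 RPKM) could not be separated, nor could Junb from Fos or Fos from Atf3, while Egr1 stood above Jun, Egr3 above Egr2, and Egr2 above Ier2. RPKM is scaled to transcript length, so levels can be set side by side across genes.

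On the log2 scale with 1 RPKM added, 5 of the 10 genes passed the filter of at least 1 RPKM in at least 1 library (Egr1, Egr2, Egr3, Jun and Ier2), and 3 of these 5, the Egr genes, lay 2-fold or more above the control. Over all 9779 genes that passed, 0.89% lay 2-fold or more above the control and 0.798% as far below it, and the median log2 ratio was -0.05. Counting intervals of the same 3 genes lay above 1, against 7.87% of all genes tested with an interval above 1 and 15.9% below 1. Since these ratios helped to choose the genes, nothing is read from these shares. With 5 RPKM added in place of 1, none of the 3 reached 2-fold, as that setting shrinks the ratios of low genes. The TPM scale raised the median of all genes by 0.13, and relative to that shift the Egr genes kept their place above it.

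Set against each other, the Egr and AP-1 groups were about equal in the control and unequal in the mutant. The 4 Egr genes summed to 7.12 RPKM in the control library and 19.1 RPKM in the mutant library, 2.68-fold (2.16 to 3.27, from summed reads), and Fos, Fosb, Jun and Junb summed to 6.84 and 6.58 RPKM, a ratio of 0.96 (0.78 to 1.17). On the TPM scale the AP-1 ratio was 1.06, on the other side of 1. The median log2 ratio was 1.10 for the 4 Egr genes (range 0 to 1.32, with Egr4 at 0) and 0.03 for the 4 AP-1 genes (-0.11 to 0.21), a difference of 1.08. Within a library the scaling cancels: the Egr sum was 1.04 times the AP-1 sum in the control and 2.89 times in the mutant, so the ratio of the groups was 2.78 times as large in the mutant (exact conditional interval from read counts 2.07 to 3.73).

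Egr1 and Jun carry most of these sums. Jun was 1.35 times as abundant as Egr1 in the control and 0.54 times as abundant in the mutant, and the ratio of Egr1 to Jun was 2.49 times as large in the mutant (1.81 to 3.45). Without Egr1, the remaining Egr genes summed to a 3.42-fold difference (2.50 to 5.92), and without Jun, the remaining AP-1 genes to 1.45-fold (0.67 to 4.37). With both left out, the ratio of the groups was 2.35 times as large in the mutant, with an interval of 0.78 to 6.44 that holds 1. Fos, Fosb and Junb have 6 control reads together, which widens that interval. The fold intervals of Egr2 (2.61 to 10.2) and Egr3 (1.74 to 5.52) each lie above that of Jun (0.75 to 1.14). These intervals cover counting error only and say nothing of differences between embryos.

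**Figure D3:**
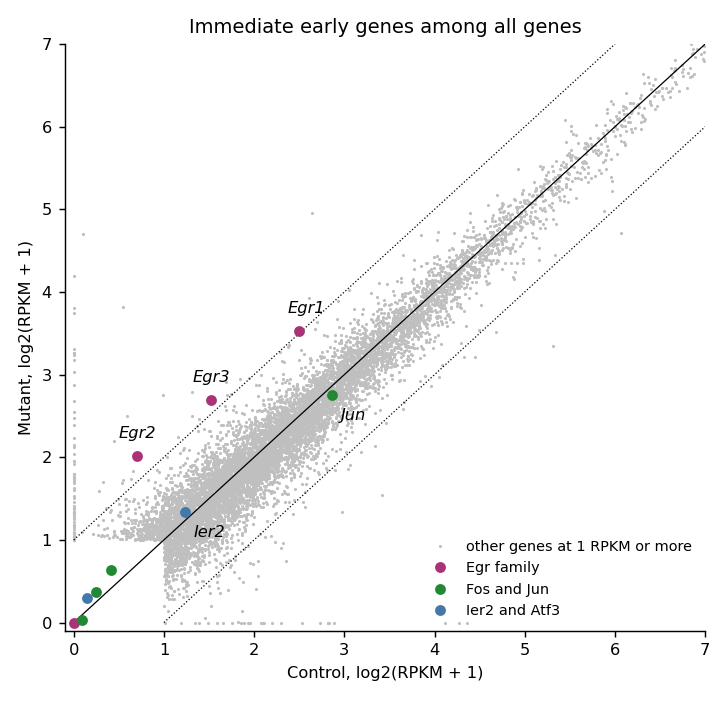
Control against mutant level, both as log2(RPKM + 1), of the 10 genes (coloured) and the other genes at 1 RPKM or more in a library (grey), with a solid line of equality and dotted lines at 2-fold; genes with a value above 7 on either axis lie outside the plot. Egr1, Egr2 and Egr3 lie just above the upper dotted line, with log2 ratios of 1.04, 1.32 and 1.17, and Jun and Ier2 lie near equality.

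By the distance of log2(RPKM + 1) over both libraries, the genes with levels most like those of Egr1 were Fgfr2 (distance 0.18, at 5.37 and 10.7 RPKM), Snrnp27 (0.23) and Phpt1 (0.23). Those most like Fos were Akap5 (0.0038), Fam164c (0.0093) and Unc13c (0.013). With only 2 libraries this says that the levels are close and no more.

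Of 18 further AP-1 and ATF subunits, 12 passed the filter, none was 2-fold apart, and their median log2 ratio was 0.13 beside -0.05 for all genes. By counting interval, 3 were above 1 and 1 below 1, beside 7.87% and 15.9% of all genes tested. Atf4, the translationally controlled factor of the integrated stress response, was at 7.89 and 11.6 RPKM, 1.48-fold (1.16 to 1.91). Batf was at 1.81 and 2.88 RPKM and the small Maf gene Mafg at 1.11 and 1.91 RPKM, both with intervals that hold 1. Atf4, Batf and Mafg were more abundant than Fos. So was Fosl2, named after its value was seen, at 7.22 RPKM in the control library and 8.48 RPKM in the mutant library. Not all of the 18 were, as Batf2 was listed at 0 in both libraries.

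Other immediate early transcription factors lay within 2-fold once 1 RPKM was added to each level, and some lay further apart otherwise. Among 19 further transcription factors of this class, 13 passed the filter, 11 had a log2 ratio above 0 and the median was 0.16. By counting interval, 2 were above 1 and 1 below, beside 7.87% and 15.9% of all genes tested. Bhlhe40, Ier5l, Nr4a1 and Nr4a2 (the last named after its value was seen) passed the filter only through the mutant. Their ratios had to be above 0, so nothing is read from the count of 11. With a filter of 5 RPKM the median was -0.02, on the other side of 0. With a pseudocount of 0.1 RPKM 2 genes were 2-fold apart, and on the TPM scale 4 were. Bhlhe40, a basic helix-loop-helix repressor linked to the clock, came nearest to the Egr genes, at 0.767 and 2.30 RPKM, 3.00-fold (1.70 to 5.65) and a log2 ratio of 0.90. Ier5l was at 0.52 and 1.15 RPKM and Ier3 at 1.83 and 1.05 RPKM, with intervals that hold 1. The orphan receptor gene Nr4a1, a classical immediate early gene added here after its value was seen, had 0.798 and 1.01 RPKM, with a ratio of 1.27 (0.65 to 2.55).

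Of 34 immediate early effectors, 21 passed the filter, none was 2-fold apart (4 were on the TPM scale) and the median was 0.11. By counting interval, 4 were above 1 and 3 below, beside 7.87% and 15.9% of all genes tested, so the count below is near the share of all genes. The Polo-like kinase gene Plk2 was at 7.32 and 11.3 RPKM, 1.55-fold (1.27 to 1.91). The pseudokinase gene Trib1 was at 1.37 and 2.51 RPKM, 1.84-fold (1.24 to 2.72). Homer1, a scaffold gene with 3 transcript rows, was at 2.31 and 4.24 RPKM, a ratio of 1.832. Its interval from summed reads (about 48 and 406) was 0.982 to 1.828, which holds 1 and not the RPKM ratio. On the other side, Dusp1, a phosphatase gene that shuts off MAP kinases, was at 4.23 and 2.71 RPKM, 1.56-fold lower (1.09 to 2.18), and is named after its value was seen.

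**Figure D4:**
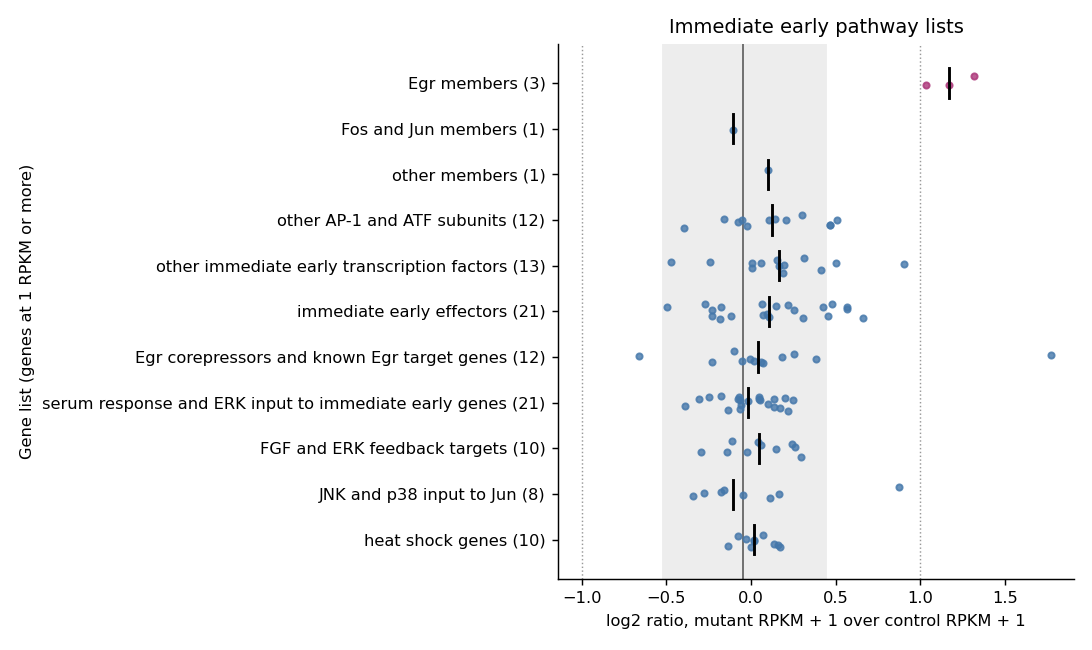
Difference in log2(RPKM + 1), mutant less control, of each gene at 1 RPKM or more in a library (points), by list, with black bars for list medians, a grey line for the median of all genes tested (-0.05), a grey band for the range from their 5th to their 95th percentile (-0.52 to 0.44) and dotted lines at 2-fold. The 3 Egr genes lie beyond the upper dotted line, and among the other pathway lists shown only Tnmd (1.77) does.

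Genes that feed into this class lay within 2-fold. Of 23 genes of the serum response and ERK input, 21 passed the filter, none was 2-fold apart and the median log2 ratio was -0.02 (0.10 on the TPM scale). Map2k1, the MEK1 gene, was at 5.17 and 3.71 RPKM, 1.39-fold lower (1.04 to 1.81), Rps6ka1 at 2.21 and 2.81 RPKM and Rps6ka5 at 1.73 and 1.21 RPKM. Srf itself, added after its value was seen, was at 3.87 and 4.66 RPKM (ratio 1.20, 0.96 to 1.53). The 10 FGF and ERK feedback targets, which report on pathway output, had a median of 0.05. By counting interval, none was above 1 and 1 was below, beside 7.87% and 15.9% of all genes tested. With so few genes nothing is read from these counts, and pathway output was not tested. Among them Spry2 was at 1.84 and 2.49 RPKM, Etv4 at 1.02 and 1.42 RPKM, and Spred1 at 9.68 and 7.71 RPKM, 1.25-fold lower (1.05 to 1.49).

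Of 9 JNK and p38 pathway genes, 8 passed the filter, with a median of -0.10 (0.02 on the TPM scale). Map2k6, a kinase gene upstream of p38, was at 2.23 and 4.92 RPKM, a plain ratio of 2.21 (1.46 to 3.43) that stays under 2-fold once 1 RPKM is added (log2 ratio 0.88). Mapk8, the JNK1 gene, was at 2.85 and 2.03 RPKM, with an interval of the ratio below 1, and Map2k3 at 3.92 and 3.06 RPKM. Of 12 heat shock genes, 10 passed, all within 2-fold, with a median of 0.02. Hspa8 was at 343 and 376 RPKM, Hspd1 at 44.1 and 49.3 RPKM and Hsph1 at 11.0 and 12.5 RPKM.

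Corepressors and known targets of Egr proteins had a median near that of all genes, with log2 ratios from -0.66 to 1.77 among those that passed the filter. Of 17 listed, 12 passed the filter, 1 was at least 2-fold higher, none was 2-fold lower (2 were 2-fold apart with a pseudocount of 0.1 RPKM, 3 on the TPM scale and 0 with a pseudocount of 5 RPKM) and the median log2 ratio was 0.04. By counting interval, 2 were above 1 and 1 below, beside 7.87% and 15.9% of all genes tested. Tnmd, the tendon gene tenomodulin, was at 0.979 and 5.76 RPKM, 5.88-fold (2.81 to 14.7) on about 7 control reads. It passed the filter only through the mutant. Ccnd1, the cyclin D1 gene, was at 7.93 and 10.6 RPKM, 1.34-fold (1.14 to 1.59). Fgf2 was at 1.45 and 0.549 RPKM, with an interval of the ratio from 0.14 to 1.46. Nab2 and Nab1, added after their values were seen, were at 5.42 and 6.28 RPKM and at 2.07 and 2.06 RPKM, and both intervals hold 1. The list was assembled from targets known in several tissues, many of which are not established in tooth mesenchyme.

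Markers of other cells also differed between the libraries in which the Egr genes differed. Of 10 markers of bone-forming cells, 7 passed the filter and 4 were at least 2-fold higher, beside 0.89% of all genes tested. The median log2 ratio was 1.08, or 0.52 with no filter. The 4 higher genes were Ibsp at 0.459 and 13.0 RPKM, 28.4-fold (11.7 to 84.7) on about 5 control reads, Sp7 at 0.607 and 3.84 RPKM, Alpl at 2.22 and 6.51 RPKM, and Ifitm5, listed at 0 in the control and at 1.12 RPKM in the mutant. Ibsp, Sp7 and Ifitm5 passed the filter only through the mutant, and genes that pass in this way have to differ. Bglap and Spp1 were also listed at 0 in the control. By interval, 5 of the 7 lay above 1 and 1 below 1, beside 7.87% and 15.9% of all genes tested. The 1 below was Phex at 1.78 and 1.05 RPKM, named after its value was seen. The list summed to 101.7 and 137 RPKM, of which Col1a1, likewise named afterwards, made up 83.2 and 86.7 RPKM. The tendon and muscle markers summed to 6.71 and 14.8 RPKM, with Tnmd as above, Mkx at 3.56 and 5.51 RPKM, Actc1 at 1.20 and 1.37 RPKM, and Myod1 and Myog at 0 in the control.

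Dental epithelium markers summed to 49.2 and 68.4 RPKM, with 7 of 13 tested having an interval above 1, none below and Cldn7 at 0 in the control. Krt17 was at 1.48 and 4.63 RPKM, Krt18 at 0.862 and 2.24 RPKM and Perp at 3.61 and 6.75 RPKM. In the list of Schwann cell and nerve markers, 2 of 13 passed the filter, and both are neurofilament genes of axons, Nefl at 2.03 and 4.43 RPKM and Nefm at 1.21 and 1.98 RPKM. They made up most of the list's sums of 3.92 and 8.43 RPKM. No Schwann cell marker of the list reached 1 RPKM in a library, Sox10 was at 0.18 and 0.17 RPKM, and 7 of the 13 were listed at 0 in the control.

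Lower sums were seen in the mutant library for dental mesenchyme, vessels and blood. Over all genes tested, 15.9% had an interval below 1, and the endothelial and macrophage counts below are near that share. Dental mesenchyme markers summed to 522 and 427 RPKM, with 7 of 10 intervals below 1, and the ratio was 0.64 for Pax9, 0.65 for Lhx8 and 0.69 for Barx1. Endothelial markers summed to 34.7 and 27.6 RPKM (1 of 7 below 1), with Emcn at 5.53 and 2.54 RPKM, Ramp2 at 4.85 and 3.19 RPKM and Tek at 2.25 and 1.76 RPKM. Macrophage markers summed to 36.1 and 28.9 RPKM (2 of 9 below 1), with C1qb at 5.51 and 3.42 RPKM, Lyz2 at 7.47 and 5.56 RPKM and Mrc1 at 3.18 and 2.46 RPKM. Erythroid markers summed to 1159 and 925 RPKM (5 of 7 below 1), with ratios of 0.74 for Hba-a1, 0.77 for Hbb-y and 0.84 for Hbb-b1. The part of any of these cell types in the Egr values was not tested.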

How the data were processed

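Laser-captured lower molar mesenchyme was profiled in 2 libraries, Osr2+/- (n = 1) and Osr2-/- (n = 1). Per the labels' protocols, cDNA was made with a NuGEN Ovation kit. TopHat 1.4.1, Bowtie 0.12.7 and mm9 are named in the submitters' processing notes; the file names add Cufflinks (version not given in the sources used here). The authors deposited, per RefSeq transcript, RPKM values and a coverage signal, per the file headers (28107 rows). Rows were paired by transcript and locus, 54 rows of 18 genes with a failed or high-data status were left out, and the rest were summed per symbol. Coverage divided by RPKM gave relative depth. Reads were estimated as coverage times length over 44.3 bases, the median of products from 20 to 66 bases. In the control, 697 rows had a product of 36 to 52 bases against 136 at 12 to 28 and 201 at 60 to 76, so a step of 1 read is visible but blurred. Read numbers, rounded, are estimates, and no count model was fitted.

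The log2 ratio used a pseudocount of 1 RPKM. Intervals (95%) are exact Poisson for levels, Clopper-Pearson for folds and exact conditional for ratios of folds; amplified reads are not independent molecules, so they cover counting error only. For sums and genes with several rows, the interval comes from summed reads and the fold from RPKM. There is no test, since each genotype has 1 library. Hras, which the files list as Hras1, was searched under its current symbol and so not used here; Trp63 was left out because its mutant rows have a failed status. Members and lists were chosen with earlier results of these data known. Named were all 10 members and, per list, up to 3 genes with the largest absolute log2 ratio and any at 2-fold, plus the 3 genes nearest in level to Egr1 and to Fos; others are marked. The interval functions were tested on simulated data. Python 3.11.15, pandas 2.3.3, scipy 1.17.1 and matplotlib 3.10.9 were used. Another 9 settings were tried, for pseudocount, filter, scaling, row choice and row status.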

Additional observations from a re-analysis of the deposited data

How the results depend on the processing

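The difference between the Egr and AP-1 medians kept its sign under 9 other settings (0.56 to 1.21). The filter, row choice and row status settings could not change it. It is taken over all members without a filter, and each member has 1 row with status OK. With a pseudocount of 5 RPKM, 0 members were 2-fold apart and the Egr median log2 ratio was 0.56. With a filter of 5 RPKM, 2 members were 2-fold apart. Over the members that pass the filter, the Egr median was 1.499 with a pseudocount of 0.1; the AP-1 median, then Jun alone, was -0.0688 with a pseudocount of 5 and -0.0573 after division by the median ratio, but 0.0258 with no filter and 0.50 or 0.51 on the TPM scale without or with a minimum length, where more members pass. Chosen after seeing the data, the summed fold was 3.42 without Egr1 and 1.45 without Jun, and the Egr median without Egr4 was 1.17. Over all genes, the 2-fold counts were 87 higher and 78 lower, against 197 and 244 with a pseudocount of 0.1, 14 and 13 with a pseudocount of 5, 24 and 26 with a filter of 5 RPKM, 975 and 595 on the TPM scale and 983 and 594 on that scale over transcripts of at least 200 bases. Log2 ratios over the settings ranged from 0.69 to 1.31 for Egr1, 0.52 to 2.23 for Egr2, 0.61 to 1.63 for Egr3 and -0.12 to 0.01 for Jun. Of the values for lists and single genes, 801 were labelled the same and 115 moved. Single-gene ratios were judged by their interval, list medians by the list's quartiles, and counts of genes 2-fold apart by closeness to the main count. Single-gene ratios do not depend on the filter, so part of the 801 could not have moved. No paired analysis was possible because each genotype has 1 library, which also leaves no replicate to leave out. Control reads (1 to 3 for Fos, Fosb, Junb and Atf3) limit the AP-1 comparison.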
